A study of Homo sapiens with 18 samples.

Results

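The mitochondrial ribosomal proteins were described in 18 RNA-seq libraries of Cal27, an established human cell line from an oral squamous cell carcinoma of the tongue. The members were all protein-coding genes whose symbol is MRPL or MRPS followed by a number, with pseudogenes left out. This rule uses names only, and it found 78 genes among the 60683 gene IDs of the count table. Of these, 49 carry an MRPL symbol and 29 an MRPS symbol. MRPL53 had 1 count in all 18 libraries together and could not be tested, which left 77 members among the 18159 genes with enough counts for a test.

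The cells were grown for 24 hours in 1 of 3 media, each without or with 10 nM of CGRP. This is the calcitonin gene-related peptide, here the recombinant human form, which sensory nerve fibres release. The first medium was high-glucose DMEM. The second lacked glucose. The third was the first with 2-deoxyglucose (2-DG) at 5 mM, a sugar that cells take up like glucose and that halts glycolysis near its start. The 6 groups have 3 libraries each, which the design text calls independent biological repetitions of this 1 cell line. The CGRP arm is titled TG and the control arm capTG; the protocol for cell growth names only treatment with different CM, so that plain addition of CGRP and the use of conditioned media cannot be told apart from the labels. No nerve cells or stroma were sequenced, and the line stands for 1 tumour.

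Mitochondria make the few membrane proteins encoded by their own genome on a ribosome of bacterial ancestry. Its 2 ribosomal RNAs come from mitochondrial DNA, while all of its proteins are encoded in the nucleus, made in the cytosol and imported. Many of these proteins have relatives in the bacterial ribosome, and others were added during the evolution of mitochondria. Symbols do not always give the subunit: MRPS18A and MRPS30 sit in the large subunit, and MRPS36 has been reassigned from the ribosome to an oxoglutarate dehydrogenase complex. By these assignments 51 members belong to the large subunit and 26 to the small one. By their systematic names 46 were counted with a bacterial relative and 32 without. MRPS18A and MRPS18B, although paralogs of bacterial protein S18, were counted among the 32.

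Library totals ran from 28038260 to 32661768 counts. Summed epithelial markers ran from 3037 to 4359 CPM (counts scaled to a common library total), while summed fibroblast markers stayed between 10.6 and 28.5 CPM and leukocyte markers between 0.0345 and 4.68 CPM. In these bulk samples fewer cells and less RNA per cell cannot be told apart. A pair of libraries stood apart from their group mates: library 2 of the glucose-deprived CGRP group and library 2 of the 2-DG control group. Members were higher in them than in the other 2 libraries of the same group by a median of 0.59 and 0.38 on the log2 scale, with 97.4% and 96.1% of the tested members above their mates. Cytosolic ribosomal proteins were higher by a median of 0.77 and 0.49 in the same libraries. Genes with transcripts under 1 kb were higher by a median of 0.36 and 0.23, and genes with transcripts over 4 kb differed by a median of -0.41 and -0.26. The members have a median transcript length of 1137 bases. Counts of members called without both libraries are given with each comparison. A length offset, which removes a smooth trend with transcript length from each library, moved the median member for CGRP in deprived medium from 0.0769 to -0.0084.

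**Figure D1:**
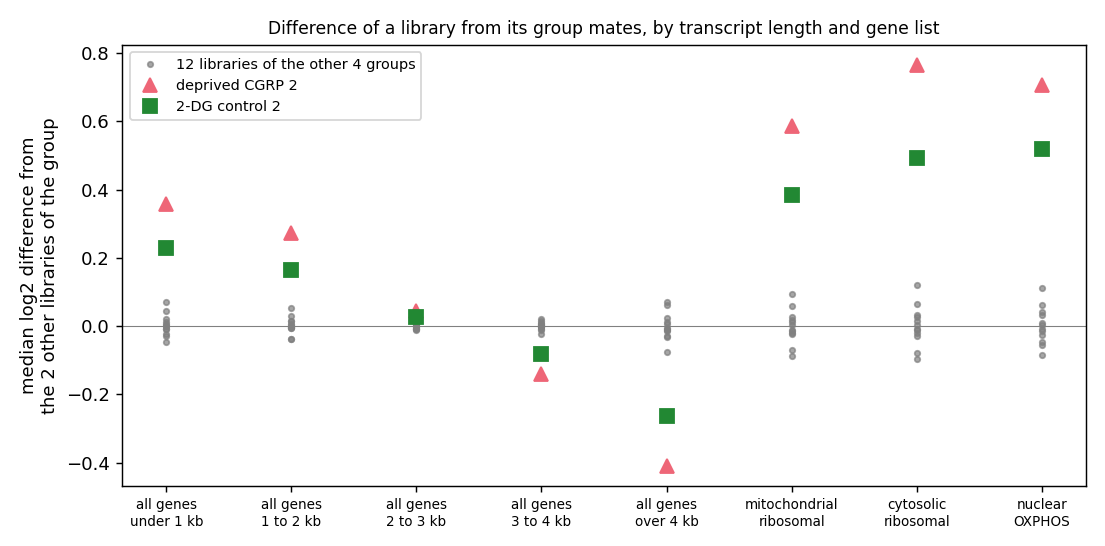
Median log2 difference of a library from the other 2 libraries of its group (y axis) for all tested genes in 5 classes of transcript length and for 3 gene lists (x axis). Library 2 of the deprived CGRP group and library 2 of the 2-DG control group are above 0 for short transcripts and for the 3 lists and below 0 for transcripts over 4 kb, while the 12 libraries of the other 4 groups lie close to 0.

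Counts on the 78 members made up 0.488% ± 0.0021 (SD, n = 3) of all counts in the high-glucose control and 0.482% ± 0.0134 (SD, n = 3) with CGRP. In glucose-deprived medium the share was 0.449% ± 0.0036 (SD, n = 3) without CGRP and 0.469% ± 0.0725 (SD, n = 3) with it. With 2-DG it was 0.516% ± 0.0575 (SD, n = 3) without CGRP and 0.486% ± 0.014 (SD, n = 3) with it. The 3 deprived control libraries lay between 0.446% and 0.453% and below the 3 high-glucose controls, which lay between 0.486% and 0.489%. Without its second library the deprived CGRP group stood at 0.427%, and the 2-DG control group at 0.483%. All these shares are of raw totals, before the scaling between libraries (TMM) used in the tests. Its factors were 1.036 to 1.047 in the high-glucose controls and 0.930 to 0.938 in the deprived controls. After scaling, the median member differed by -0.025 on the log2 scale between deprived and high-glucose controls, with 15 rises and 15 falls in the test below.

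**Figure D2:**
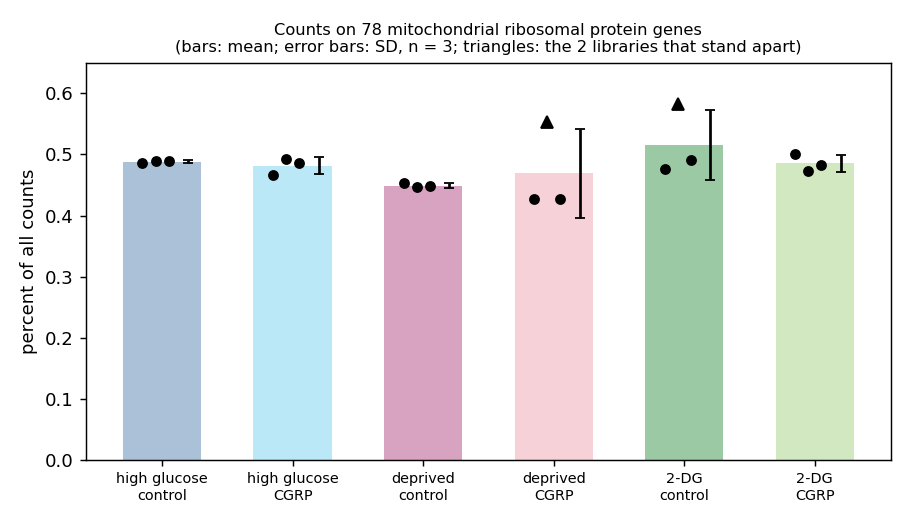
Percent of all counts on the 78 mitochondrial ribosomal protein genes (y axis) in the 6 groups (x axis), with bars at the mean of 3 libraries, error bars for the SD and a symbol for each library. Shares are of raw totals and are not scaled between libraries. The deprived control libraries sit between 0.446% and 0.453%, and the triangles mark the 2 libraries that stand apart, at 0.553% and 0.582%.

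Per kilobase of transcript, the levels of the 77 tested members in the high-glucose control ran from 1.12 to 271 CPM per kb. The length used was the median over a gene's annotated protein-coding transcripts, 509.5 bases for MRPL49 and 551 for MRPL51. The order depends on this length, and the SD does not cover its uncertainty. In CPM not divided by length MRPL3 stood at 220.0, MRPL37 at 194.0 and MRPL49 at 138.2. MRPL49 was highest at 271 ± 4.17 CPM per kb (SD, n = 3), followed by MRPL51 at 236 ± 2.96, MRPL3 at 139 ± 3.89, MRPL37 at 131 ± 1.34 and MRPL42 at 116 ± 1.66. MRPL49, MRPL51, MRPL37 and MRPL42 are large-subunit proteins without a bacterial relative, and MRPL3 is the relative of the bacterial protein near the peptidyl transferase centre. The levels of MRPL42 and of MRPL11, next in order at 114 ± 1.88, differed by about their spread.

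The lowest tested members were MRPL38 at 1.12 ± 0.13 CPM per kb (SD, n = 3), MRPL2 at 1.255 ± 0.112, MRPL12 at 1.87 ± 0.0854, MRPL46 at 3.12 ± 0.0918 and MRPS17 at 4.07 ± 0.393. MRPL2 is the relative of a protein that ribosomes of all kingdoms carry, and MRPL12 that of the bacterial protein in the flexible stalk that recruits translation factors. In all, 7 members were under 5 CPM in this group: MRPL2, MRPL12, MRPL38, MRPL46, MRPL53, MRPS24 and MRPS28. In the GENCODE annotation 6 of these share exon bases on the same strand with another gene, and in 4 of them the shared part was at least 30% of the exon bases; MRPL2 had no such overlap. Of all 78 members 16 had a same-strand overlap, of at least 30% in 5. The fifth, MRPL30 with 32.6%, stood at 62.0 ± 1.33 CPM (SD, n = 3). Overlaps were summed over all overlapping genes, as for MRPL30, so that a base under more than 1 gene counts more than once. For MRPL12, 68.2% of the exon bases lie under a second gene model that was itself listed at 0 CPM in every library. How reads in shared bases were counted is not given in the sources used here, and its part in these levels was not tested.

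The group means of most members lay within 1.5 times of each other. The same was not counted over all genes, so it is not shown to be particular to the members. The largest of the 6 group means was a median of 1.32 times the smallest, it stayed under 1.2 times in 21 of the 77 tested members and under 1.5 times in 64, and it reached 2 times in 2. These were MRPS24, with a ratio of 5.39, and MRPL12, with 2.13. Without both libraries that stood apart the ratio of MRPS24 was 5.19 and that of MRPL12 was 1.61, so that 1 member reached 2 times. The median ratio was then 1.30, and it stayed under 1.2 times in 24 members and under 1.5 times in 62.

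Glucose deprivation without CGRP compared 6 libraries that hold neither of the pair that stood apart. Here 15 members rose and 15 fell at an adjusted p under 0.05 (edgeR's quasi-likelihood test with Benjamini-Hochberg adjustment), which is 39% of the 77 tested. Of all 18159 genes 31% rose and 29.6% fell, 60.6% in all; the difference between these shares was not tested. The median member stood at -0.025 on the log2 scale, and the median of all genes at 0.02. Both subunits were divided: 9 large-subunit members rose and 10 fell of 50, and 6 small-subunit members rose and 5 fell of 26. Of members counted with a bacterial relative, 8 rose and 9 fell of 46. Of those counted without, which include MRPS18A and MRPS18B, 7 rose and 6 fell of 31. Directions were also counted by transcript length. Of the 38 members under the median length 3 rose and 10 fell, and of the 39 others 12 rose and 5 fell. Their medians were -0.0514 and 0.0053, and the difference between these 2 classes was not tested. With the length offset 7 rose and 11 fell of the 38, and 13 rose and 7 fell of the 39.

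Among the rises, MRPL1 and MRPL10 are large-subunit proteins at 2 mobile parts of the ribosome, the stalk at the tRNA exit side and the base of the factor-binding stalk. MRPL1 measured 13.25, 13.15 and 12.35 CPM in the 3 high-glucose controls and 21.3, 21.9 and 22.1 CPM in the 3 deprived controls. Its change was 0.75 ± 0.15 on the log2 scale (SE, adjusted p = 0.00045). MRPL10, which holds MRPL12 at the stalk, measured 38.7, 39.8 and 39.0 CPM in high glucose and 64.0, 64.7 and 63.8 CPM in deprivation. It rose by 0.71 ± 0.08 (SE, adjusted p = 1.02e-06). In neither gene did the groups overlap, and the libraries of a group lay within about 1 CPM of each other.

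MRPL45 and MRPL58 have no bacterial ribosomal relative. MRPL45 lies at the exit of the peptide tunnel and helps attach the ribosome to the inner membrane, and MRPL58 is a peptidyl-tRNA hydrolase that became part of the large subunit. MRPL45 measured 57.25, 58.7 and 57.1 CPM in high glucose and 85.7, 85.8 and 88.0 CPM in deprivation, a rise of 0.58 ± 0.09 (SE, adjusted p = 4.85e-05). MRPL58 measured 25.3, 27.2 and 26.8 CPM in high glucose and 38.3, 37.7 and 39.8 CPM in deprivation, a rise of 0.55 ± 0.14 (SE, adjusted p = 0.0035). The small-subunit protein MRPS35 went from 91.3 ± 1.24 to 133.7 ± 2.51 CPM (SD, n = 3), a rise of 0.55 ± 0.08 (SE, adjusted p = 1.24e-05). All 3 kept the call in the 15 alternative settings tried, as did MRPL1 and MRPL10.

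The largest fall was that of MRPS24, the relative of bacterial protein S3 at the entry of the mRNA channel. It measured 2.77, 3.49 and 2.93 CPM in high glucose and 0.922, 0.655 and 0.986 CPM in deprivation, so that the groups lay far apart at a low level. The change was -1.84 ± 0.18 (SE, adjusted p = 1.90e-07). MRPS24 shares 23.2% of its exon bases with a readthrough gene, URGCP-MRPS24, which was listed at 0 CPM in all libraries. MRPS28, a small-subunit member, was also low and went from 2.65 ± 0.19 to 1.67 ± 0.127 CPM (SD, n = 3), a change of -0.67 ± 0.24 (SE, adjusted p = 0.022). Its call was lost without any 1 of 3 libraries, replicates 2 and 3 of the high-glucose control and replicate 2 of the deprived control, with an adjusted p of up to 0.0605.

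MRPL14, MRPL18 and MRPL16 are large-subunit relatives of universal ribosomal proteins and were well expressed. MRPL14 measured 74.1, 76.5 and 79.3 CPM in high glucose and 47.3, 47.2 and 45.6 CPM in deprivation, a fall of -0.71 ± 0.18 (SE, adjusted p = 0.0027). MRPL18 measured 103.3, 107.9 and 107.1 CPM in high glucose and 76.9, 73.0 and 76.0 CPM in deprivation, with a change of -0.49 ± 0.12 (SE, adjusted p = 0.0025). MRPL16 went from 49.98 ± 1.54 to 36.4 ± 1.525 CPM (SD, n = 3), with a change of -0.46 ± 0.12 (SE, adjusted p = 0.0031). Members of both directions are therefore found among the universal proteins of the large subunit.

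**Figure D3:**
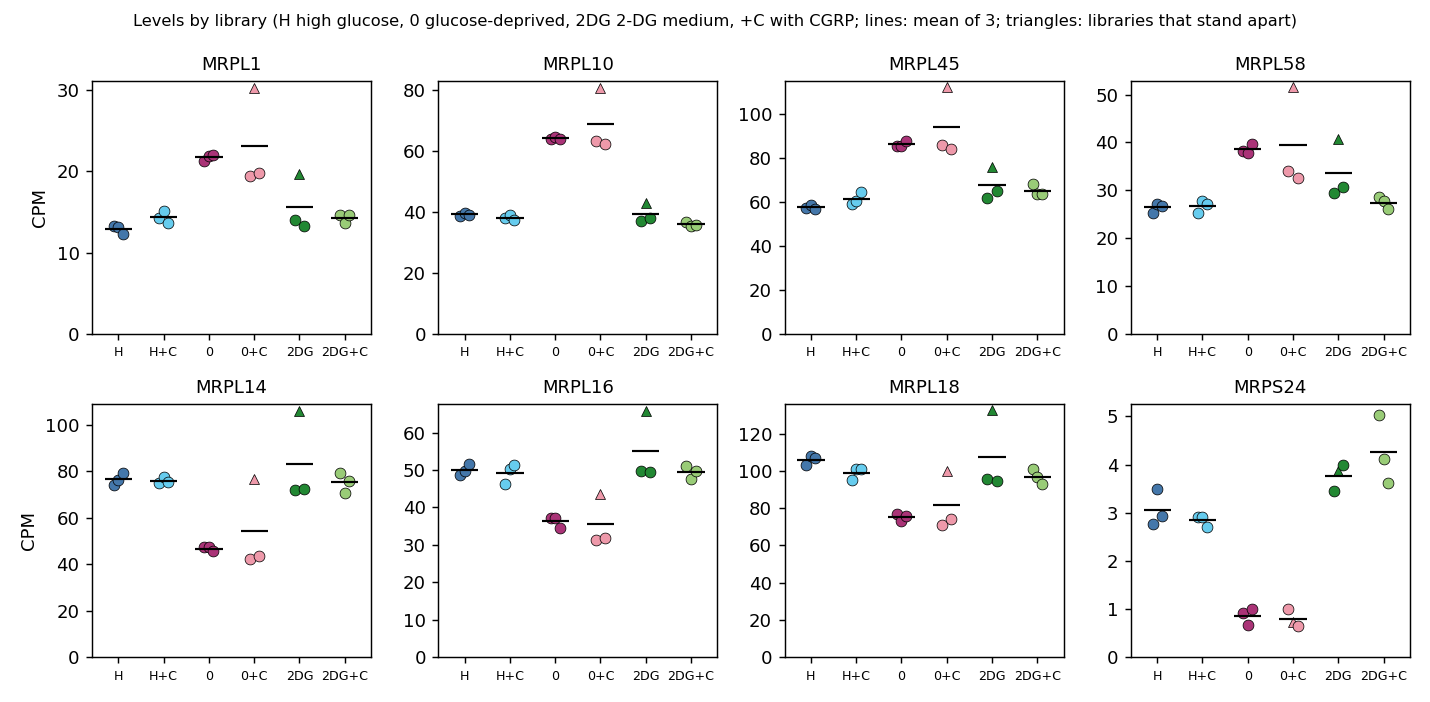
Level in CPM (y axis, linear, each panel with its own scale from 0) of 8 members in every library of the 6 groups (x axis), with a line at the mean of 3 libraries. MRPL1, MRPL10, MRPL45 and MRPL58 are higher in the deprived control libraries than in the high-glucose controls, MRPL14, MRPL16, MRPL18 and MRPS24 are lower, and in 7 of the 8 panels the triangles lie above their group mates.

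Among the members followed in every comparison, MRPS30 of the large subunit rose from 46.8 ± 1.63 to 61.7 ± 2.24 CPM (SD, n = 3), a change of 0.40 ± 0.06 (SE, adjusted p = 1.41e-05). The 3 paralogs of bacterial protein S18 did not do the same. MRPS18B of the small subunit rose from 89.5 ± 1.59 to 120.4 ± 1.77 CPM (SD, n = 3), a change of 0.43 ± 0.08 (SE, adjusted p = 0.00022). MRPS18C, also of the small subunit, stood at 0.01 ± 0.13 (SE, adjusted p = 0.96) and MRPS18A of the large subunit at -0.12 ± 0.12 (SE, adjusted p = 0.41); the differences between the paralogs' changes were not tested. MRPS12, a protein of the decoding centre, stood at -0.03 ± 0.15 (SE, adjusted p = 0.89), and MRPL12 at -0.0045 ± 0.36 (SE, adjusted p = 0.99). DAP3, a GTP-binding small-subunit protein that the naming rule leaves out, stood at -0.04 ± 0.10 (SE, adjusted p = 0.74).

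Several settings moved these counts. The length offset gave 20 members that rose and 18 that fell, where 32.9% of all genes rose and 32.2% fell, 65% in all. With only the groups compared 55 members were called, and without any 1 of the 6 libraries 22 to 23. The shares of all genes in those settings are not given here. Scaling by total counts in place of TMM shifted the median of all genes to -0.13. It gave 11 members that rose and 25 that fell, where 22.9% of all genes rose and 37.4% fell, 60.3% in all. Leaving out the pair of libraries that stood apart, which belong to other groups but enter the estimate of the spread, gave 23 that rose and 29 that fell, against 36.1% and 36.3% of 18476 genes, 72.4% in all.

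The same step into deprived medium with CGRP in both arms uses the other 6 libraries of these media. In it 19 members rose and 9 fell, 36.4% of 77, where 31.9% of all genes rose and 28.5% fell, 60.4% in all, and the median member stood at 0.05. All 15 members that rose without CGRP also rose with it, which is 100% of 15 and 78.9% of 19. The 9 that fell were among the 15 that fell without CGRP, which is 60% of 15 and 100% of 9, and no member changed in opposite directions. The same overlap was not counted over all genes, so whether it is particular to the members was not tested. Over the 77 members the 2 sets of log2 changes had a Pearson correlation of 0.936, a description across genes, which come from the same libraries. Without the second library of the deprived CGRP group and that of the 2-DG control, the split turned: 17 members rose and 44 fell, the median member stood at -0.16, and 35% of all genes rose and 34.9% fell, 69.9% in all.

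**Figure D4:**
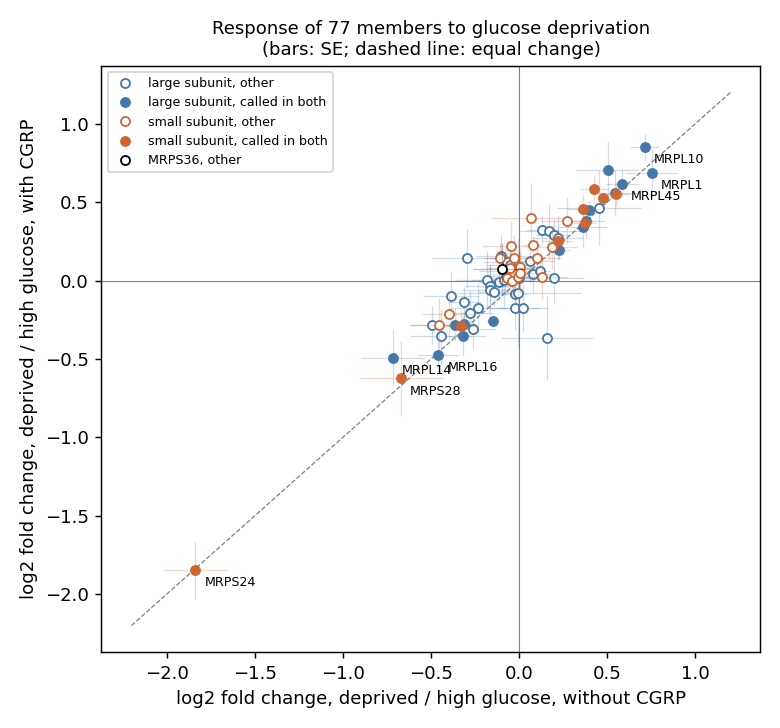
Log2 fold change of the 77 tested members in glucose-deprived against high-glucose medium without CGRP (x axis) and with CGRP (y axis), with bars for the SE and filled circles for members called in the same direction in both. The points lie along the line of equal change, with MRPS24 at -1.84 in both and MRPL10 at 0.71 and 0.85.

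Named rises with CGRP were those of MRPL10, MRPL52, MRPL1, MRPL45 and MRPS18B. MRPL10 measured 37.9, 38.9 and 37.45 CPM in high glucose and 63.3, 80.7 and 62.2 CPM in deprivation, a rise of 0.85 ± 0.08 (SE, adjusted p = 1.23e-07); without both libraries the rise was 0.69. MRPL52, a large-subunit protein specific to mitochondria, measured 34.2, 36.2 and 34.3 CPM in high glucose and 46.5, 77.8 and 46.7 CPM in deprivation. Its rise of 0.71 ± 0.18 (SE, adjusted p = 0.0028) was 0.39 without both libraries (adjusted p = 1.15e-08). The second deprived library was the highest for each of these genes, and the other 2 deprived libraries also lay above all 3 high-glucose ones.

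MRPL1 rose by 0.69 ± 0.15 (SE, adjusted p = 0.00092), and by 0.42 without both libraries. MRPL45 rose by 0.62 ± 0.09 (SE, adjusted p = 2.68e-05) and MRPS18B by 0.58 ± 0.08 (SE, adjusted p = 9.17e-06); without both libraries these were 0.45 and 0.42. MRPL58, the hydrolase, rose by 0.56 ± 0.14 (SE, adjusted p = 0.0029), against 0.29 without both libraries. MRPS30 rose by 0.45 ± 0.06 (SE, adjusted p = 3.60e-06).

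Named falls with CGRP were those of MRPS24, MRPS28, MRPL16, MRPS31 and MRPL35. MRPS24 measured 2.91, 2.91 and 2.705 CPM in high glucose and 0.989, 0.732 and 0.650 CPM in deprivation, a change of -1.84 ± 0.19 (SE, adjusted p = 2.55e-07). It was the same low gene with the same size of change as without CGRP, and its second deprived library did not stand apart. MRPL16 changed by -0.47 ± 0.12 (SE, adjusted p = 0.0025), and MRPL35, a small protein of the large subunit, by -0.27 ± 0.07 (SE, adjusted p = 0.0033). MRPS28 at -0.62 ± 0.24 (SE, adjusted p = 0.032) lost its call without any 1 of 5 libraries, the 3 of high glucose with CGRP and replicates 1 and 3 of deprivation with CGRP. MRPS31, a small-subunit protein at -0.29 ± 0.10 (SE, adjusted p = 0.016), lost its call without replicate 1 or 3 of deprivation with CGRP and with only the groups compared.

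MRPS12 and MRPS18C stood at 0.14 ± 0.15 (SE, adjusted p = 0.42) and 0.05 ± 0.13 (SE, adjusted p = 0.77) in this comparison. Without both libraries they fell, by -0.14 (adjusted p = 0.023) and -0.19 (adjusted p = 0.0056), so that their direction turned in that setting. DAP3 stood at 0.13 ± 0.10 (SE, adjusted p = 0.28).

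Other genes of mitochondrial protein synthesis were counted in deprivation without CGRP. Of 29 genes for assembly of the mitochondrial ribosome and modification of its RNA, 17 rose and 2 fell, and of 17 mitochondrial translation factors 10 rose and 1 fell. Without both libraries 18 rose and 7 fell of the 29, and 10 rose and 3 fell of the 17. Over all genes 31% rose and 29.6% fell, 60.6% in all. Without both libraries 36.1% of all genes rose and 36.3% fell, 72.4% in all. These shares also apply to the next lists of this comparison. MTIF2, the initiation factor that brings the first tRNA, measured 73.4, 73.5 and 72.8 CPM in high glucose and 140.5, 141.1 and 137.5 CPM in deprivation, a rise of 0.93 ± 0.05 (SE, adjusted p = 2.97e-11). GTPBP10, a GTPase of large-subunit assembly, rose by 0.80 ± 0.05 (SE, adjusted p = 2.56e-10). Among 5 ribosomal proteins with other symbols CHCHD1 fell, by -0.70 ± 0.18 (SE, adjusted p = 0.0034), and without both libraries 3 of the 5 fell. The difference between these lists and the members was not tested.

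The ribosome's own RNAs were counted too. MT-RNR2, the large-subunit ribosomal RNA, measured 3643, 3863 and 4042 CPM in the 3 high-glucose controls and 10940, 10550 and 10960 CPM in the 3 deprived controls, with a rise of 1.49 ± 0.08 (SE, adjusted p = 7.06e-11). MT-RNR1, the small-subunit ribosomal RNA, went from 711.2 ± 32.55 to 1633 ± 76.1 CPM (SD, n = 3), a rise of 1.199 ± 0.15 (SE, adjusted p = 2.50e-06). Across the 15 tested mitochondrially encoded genes 3 rose and 8 fell, and the third rise was that of MT-ND1. How ribosomal RNA was removed or messenger RNA selected is not given in the sources used here, and its part in these counts was not tested.

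Beside the members, 38 of 82 cytosolic ribosomal proteins rose and 2 fell in the same comparison, with a median of 0.39. Of 78 nuclear-encoded subunits of the respiratory chain and ATP synthase 4 rose and 30 fell, with a median of -0.27. The members, with 15 in each direction, had a median between these. Without both libraries the counts were 72 and 5 of 83 cytosolic ribosomal proteins, 8 and 55 of 78 respiratory subunits, and 23 and 29 of 77 members.

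**Figure D5:**
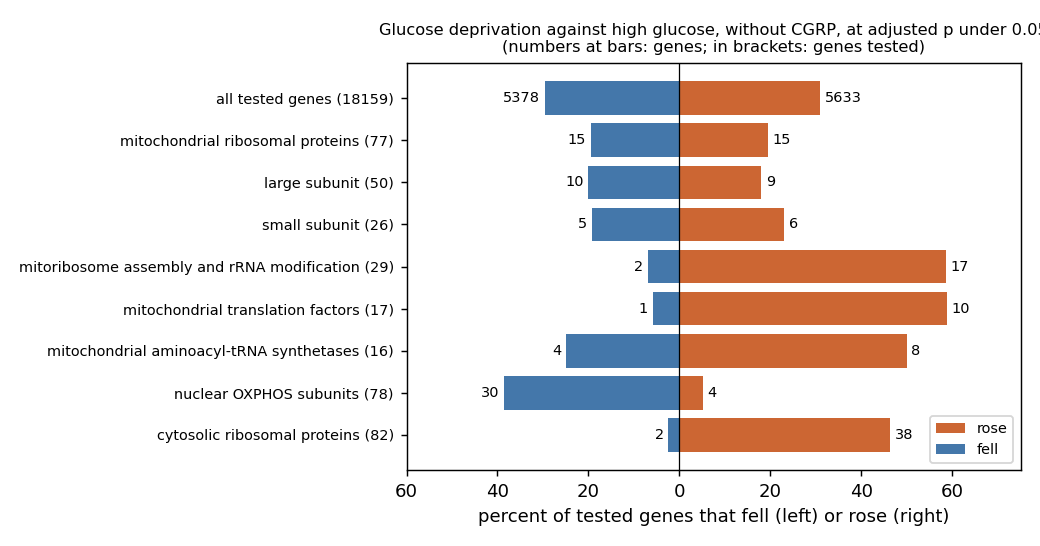
Percent of tested genes that rose (right) or fell (left) in glucose-deprived against high-glucose medium without CGRP (x axis), for all genes, the members and other lists (y axis), with the number of genes at each bar. The members have 15 genes on each side, cytosolic ribosomal proteins 38 rises and 2 falls, and nuclear OXPHOS subunits 4 rises and 30 falls.

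With 2-DG in place of plain high glucose, without CGRP, 7 members rose and 0 fell, which is 9.09% of 77. Over all genes 7.99% rose and 5.85% fell, 13.8% in all. In this comparison 73 of 77 members lay above 0 with a median of 0.14, but without both libraries 34 lay above 0 with a median of -0.01. In that setting 17 members rose and 7 fell, where 18.1% of all genes rose and 14.3% fell, 32.5% in all. The 7 rises were those of MRPL17, MRPS17, MRPL15, MRPS2, MRPL3, MRPS25 and MRPS27, and all 7 had transcripts at or over the median length.

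MRPL17, a large-subunit protein near the exit of the peptide tunnel, had the largest rise. It measured 49.5, 47.5 and 48.4 CPM in the high-glucose controls and 67.8, 94.7 and 69.7 CPM in the 2-DG controls, 0.67 ± 0.14 on the log2 scale (SE, adjusted p = 0.0037). Without both libraries the rise was 0.50 (adjusted p = 3.28e-12), and it kept its call in the 15 alternative settings. With CGRP in both arms MRPL17 measured 47.0, 52.7 and 50.2 CPM in high glucose and 69.4, 66.7 and 68.6 CPM with 2-DG. These groups did not overlap either, although this change of 0.45 ± 0.14 missed the threshold (SE, adjusted p = 0.116). Without both libraries it was 0.44 (adjusted p = 2.32e-11). MRPL17 was 1 of 15 members without overlap in this comparison that did not pass, and such genes were not counted over all genes.

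MRPS17, a small-subunit protein, rose by 0.54 ± 0.14 (SE, adjusted p = 0.017), from a low level of 7.502 ± 0.725 CPM (SD, n = 3). NIPSNAP2, which had 119.3 to 150.1 CPM, and a second gene model, at 0 to 0.0695 CPM, overlap MRPS17 on the same strand. Summed over both, the overlap was 27% of its exon bases, and the part of each was not separated. MRPL15, from the large subunit, rose by 0.41 ± 0.11 (SE, adjusted p = 0.017) and MRPS2, from the small, by 0.32 ± 0.09 (SE, adjusted p = 0.020). MRPS17, MRPL15 and MRPS2 lost their call without library 2 of the 2-DG control and without at least 2 of the high-glucose controls, with an adjusted p of up to 0.113; those of MRPS17 and MRPS2 were also lost with only the groups compared. MRPL3 rose by 0.28 ± 0.06 (SE, adjusted p = 0.0057), from 220.0 ± 6.15 to 267.3 ± 17.75 CPM (SD, n = 3), and kept its call in all 15 settings.

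With CGRP in both arms, 1 member rose with 2-DG and none fell, where 1.52% of all genes rose and 0.87% fell, 2.39% in all. This was MRPS24, at 2.84 ± 0.118 CPM in high glucose and 4.26 ± 0.719 CPM with 2-DG (SD, n = 3), a change of 0.58 ± 0.15 (SE, adjusted p = 0.048). The call was lost without any 1 of the 6 libraries compared, with total-count scaling, with no low-count filter and with the replicate block, with an adjusted p of up to 0.205, and DESeq2 called 2 members. Without both libraries 11 members rose and 3 fell, where 10.5% of all genes rose and 9.01% fell, 19.5% in all.

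Against glucose deprivation rather than high glucose, 2-DG without CGRP showed 24 members higher and 8 lower, 41.6% of 77, where 28.9% of all genes were higher and 28.6% lower, 57.5% in all. This comparison shares its deprived controls with the first one, so that the values of a member in it are not independent of those above. MRPS24 was higher with 2-DG by 2.13 ± 0.18 (SE, adjusted p = 2.89e-08), at 3.44, 3.87 and 3.99 CPM against 0.922, 0.655 and 0.986 CPM. MRPS28 was higher by 0.91 ± 0.23 (SE, adjusted p = 0.0032), MRPL14 by 0.84 ± 0.18 (SE, adjusted p = 0.00084), MRPS34 by 0.78 ± 0.17 (SE, adjusted p = 0.0010) and MRPL17 by 0.70 ± 0.14 (SE, adjusted p = 0.00043). MRPS34 is a small-subunit protein specific to mitochondria. For MRPS34 the deprived controls held 75.3 ± 2.36 CPM and the 2-DG controls 129.6 ± 28.2 CPM (SD, n = 3).

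MRPL10 was lower with 2-DG than in deprivation by -0.71 ± 0.08 (SE, adjusted p = 1.29e-06), MRPL1 by -0.48 ± 0.15 (SE, adjusted p = 0.013), MRPS10 by -0.37 ± 0.06 (SE, adjusted p = 0.00011), MRPL45 by -0.35 ± 0.09 (SE, adjusted p = 0.0041) and MRPS35 by -0.34 ± 0.08 (SE, adjusted p = 0.0013). MRPS10 is a small-subunit relative of bacterial protein S10. The 2-DG controls of MRPL10, at 37.0, 42.8 and 38.2 CPM, lay near the high-glucose controls at 38.7, 39.8 and 39.0 CPM and far below the deprived controls at 64.0, 64.7 and 63.8 CPM. The call of MRPL1 was lost without replicate 1 or 3 of the 2-DG control. Total-count scaling, which shifted the median of all genes to 0.09, gave 37 members higher and 8 lower, where 34.2% of all genes were higher and 23.2% lower. Without both libraries 31 were higher and 20 lower, where 34% of all genes were higher and 32.8% lower, 66.8% in all.

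CGRP in high glucose changed no member at the threshold, where 2.04% of all genes rose and 2.29% fell, 4.33% in all, by edgeR's quasi-likelihood test. DESeq2 called 0 members as well, and 4 had an unadjusted p under 0.05 by edgeR's test. Of the 77 members 38 lay below 0 and 39 above. Between these groups 22 members had no overlap of libraries, in either direction, and such genes were not counted over all genes. MRPL3 measured 214.0, 226.3 and 219.8 CPM without CGRP and 190.7, 195.2 and 194.9 CPM with it, and MRPS30 measured 45.9, 45.8 and 48.7 CPM without and 41.55, 43.1 and 40.2 CPM with it. In both genes every CGRP library lay below every control library, at -0.18 ± 0.06 (SE, adjusted p = 0.12) for MRPL3 and -0.17 ± 0.06 (SE, adjusted p = 0.13) for MRPS30. Without the pair of libraries that stood apart, which belong to other groups, both passed the threshold (adjusted p = 2.77e-06 and 0.0037), and 1 member rose and 9 fell, where 9.14% of all genes rose and 9.92% fell, 19.1% in all. MRPL12, MRPL58, MRPS12, MRPS18A, MRPS18B and MRPS18C lay between -0.05 and 0.10 with an adjusted p of at least 0.89.

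CGRP in glucose-deprived medium lowered MRPL3, the 1 member called of 77, where 6.38% of all genes rose and 6.58% fell, 13% in all. MRPL3 measured 262.7, 257.0 and 251.6 CPM without CGRP and 209.3, 245.6 and 211.2 CPM with it, a fall of -0.21 ± 0.06 (SE, adjusted p = 0.034). The call was lost without any 1 of 5 libraries, the 3 deprived controls and replicates 1 and 3 of deprivation with CGRP, and also with no low-count filter, with a stricter filter and with only the groups compared, with an adjusted p of up to 0.267 over these 8 settings. The direction of members at large turned with the pair of libraries that stood apart: 53 of 77 lay above 0 with a median of 0.08 with all libraries, and 6 of 77 with a median of -0.12 without both. In that setting 2 members rose and 34 fell, where 12.1% of all genes rose and 16.6% fell, 28.7% in all. MRPL58 stood at 0.03 ± 0.14 (SE, adjusted p = 0.93) with all libraries and fell by -0.21 (adjusted p = 0.0021) without both, and DAP3 stood at 0.04 ± 0.10 (SE, adjusted p = 0.80) and fell by -0.10 (adjusted p = 0.027). MRPS12, MRPS18A, MRPS18B and MRPS18C lay between 0.11 and 0.20 with all libraries and between -0.09 and -0.02 without both, and passed the threshold in neither setting.

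CGRP in 2-DG medium lowered 8 members and raised 0, 10.4% of 77, where 6.89% of all genes fell, 5.31% rose and 12.2% were called in all. The 8 were MRPL3, MRPL12, MRPL15, MRPS2, MRPS10, MRPS25, MRPS27 and MRPS30. MRPS25, a small-subunit protein specific to mitochondria, measured 40.4, 41.9 and 45.2 CPM without CGRP and 34.8, 35.7 and 34.4 CPM with it, a fall of -0.28 ± 0.05 (SE, adjusted p = 0.0025). MRPL3 measured 256.5, 287.8 and 257.6 CPM without CGRP and 218.8, 222.1 and 215.4 CPM with it, a fall of -0.29 ± 0.06 (SE, adjusted p = 0.0051). MRPS25 and MRPL3 kept their call in the 15 settings tried, and in neither did the groups overlap.

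MRPS30 measured 50.9, 50.8 and 52.3 CPM without CGRP and 43.4, 44.3 and 44.5 CPM with it, a fall of -0.22 ± 0.06 (SE, adjusted p = 0.018). MRPL15 fell by -0.37 ± 0.11 (SE, adjusted p = 0.033) and MRPS2 by -0.30 ± 0.09 (SE, adjusted p = 0.030). The calls of MRPS30, MRPL15 and MRPS2 were each lost without any 1 of the 3 libraries of 2-DG with CGRP, that of MRPS30 also without replicate 3 of the 2-DG control, that of MRPS2 without replicate 2 and that of MRPL15 without either. All 3 calls were also lost with only the groups compared, and that of MRPS30 with no low-count filter. MRPL12 measured 2.06, 6.16 and 2.87 CPM without CGRP and 1.74, 2.12 and 1.35 CPM with it, so that the groups overlapped and 1 control library stood far above the other 5. Its change was -1.08 ± 0.33 (SE, adjusted p = 0.047), and -0.49 without both libraries (adjusted p = 0.046). Of 77 members 67 lay below 0, and 36 without both libraries; in that setting 7 members rose and 16 fell, where 12.3% of all genes rose and 16.1% fell, 28.4% in all.

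Whether the CGRP response of members differed between media was tested directly. Between deprived and high-glucose medium 0 members differed by edgeR's quasi-likelihood test, with 0 at an unadjusted p under 0.05 and 0 by DESeq2, where the response of 0.903% of all genes was higher and of 0.65% lower in deprived medium, 1.55% in all. Between 2-DG and high-glucose medium 0 differed, with 2 at an unadjusted p under 0.05 and 0 by DESeq2, where it was higher for 0.121% of all genes and lower for 0.27% in 2-DG medium, 0.391% in all. Without both libraries 15 members had a lower CGRP response in deprived medium than in high glucose and 0 a higher one, where 7.67% of all genes had a lower and 5.86% a higher one, 13.5% in all. MRPL58 was 1 of these 15, at -0.22 (adjusted p = 0.030) against 0.01 ± 0.20 with all libraries. In the same setting 2 members had a higher and 1 a lower response in 2-DG medium than in high glucose, where 2.32% of all genes had a higher and 3.59% a lower one, 5.91% in all. MRPL3 fell or lay lower with CGRP in all 3 media, in 9 of 9 libraries against the controls of the same medium. It was named because it passed in deprived and 2-DG medium, so the libraries of those media are no separate support for it. How many of all genes did the same was not counted.

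Start regions of the members were read from RefSeq on GRCh38.p14, as windows from 250 bases before to 50 bases after the annotated gene start. A window was found for 69 of the 78 members, among 27305 windows in all. The motif CCGGAAG, bound by ETS factors such as GABP, stood on either strand in 29 of the 69 windows, or 42%, against 10.7% of all windows and 14.2% of those of protein-coding genes. The motif AAGATGGCG, bound by YY1, stood in 13, or 18.8%, against 1.85% of all windows and 2.74% of those of coding genes. CGCATGCG, the core of the motif bound by NRF1, stood in 3 (MRPL17, MRPL22 and MRPS18C), or 4.35% against 2.19% of all windows and 2.88% of those of coding genes. The E-box CACGTG stood in 6, or 8.7%, against 7.43% of all windows and 8.88% of those of coding genes. The CRE motif TGACGTCA, bound by CREB, stood in none of these 69 windows and in 1.98% of all. CCGGAAG ends in the letters with which AAGATGGCG begins, but in 0 of the 69 windows did the 2 matches overlap. A match is a description of letters, not of binding.

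The motifs were spread over members of both directions. CCGGAAG stood in 5 of 13 members with a window that rose in deprivation without CGRP, in 6 of 12 that fell and in 17 of 43 that did not pass. AAGATGGCG stood in 4, 2 and 7 of the same members. The 150 bases before the start are shown for MRPL58 and MRPL1, which rose, MRPL14, which fell, and MRPL3, which rose in deprivation and fell with CGRP in 2-DG medium. They lie at chr17:75012520-75012669 on the plus strand, chr4:77862680-77862829 on the plus strand, chr6:44127309-44127458 on the minus strand and chr3:131502972-131503121 on the minus strand of GRCh38.p14. Capitals mark CCGGAAG, which begins 8 bases before the start of MRPL58 and 32 bases before that of MRPL3, and which the other 2 stretches do not hold.
MRPL58: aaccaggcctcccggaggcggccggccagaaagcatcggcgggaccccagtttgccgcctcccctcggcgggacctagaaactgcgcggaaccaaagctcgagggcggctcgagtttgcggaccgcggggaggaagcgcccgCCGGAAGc
MRPL1: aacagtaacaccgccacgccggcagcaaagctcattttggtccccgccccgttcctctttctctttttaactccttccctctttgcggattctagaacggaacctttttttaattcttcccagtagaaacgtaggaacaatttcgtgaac
MRPL14: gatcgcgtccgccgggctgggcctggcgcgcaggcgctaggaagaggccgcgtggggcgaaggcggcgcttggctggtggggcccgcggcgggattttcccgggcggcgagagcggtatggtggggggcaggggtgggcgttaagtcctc
MRPL3: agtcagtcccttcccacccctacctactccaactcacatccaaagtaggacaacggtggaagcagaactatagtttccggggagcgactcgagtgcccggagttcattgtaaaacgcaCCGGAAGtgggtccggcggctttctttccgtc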

How the data were processed

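The authors deposited 1 table of raw read counts per gene ID for the 18 libraries, per the file headers. HISAT2 2.0.4 aligned the reads, per the submitters' processing notes. These name hg19 as well as GRCh38 and give neither a role. No counting program, annotation or strand setting was found (not given in the sources used here), so counts of members with paralogs, pseudogenes (36 members) or overlapping genes (41, on either strand) are uncertain. Symbols came from a gene name table (60370 of 60683 IDs matched), and lengths and overlaps from GENCODE.

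Counts were filtered with filterByExpr (minimum 10, total 15), scaled by TMM and tested with edgeR 4.0.16 in R 4.3.3 (robust quasi-likelihood, 1 coefficient per group, all 18 libraries, 12 residual degrees of freedom), with Benjamini-Hochberg adjustment over all 18159 genes of a comparison and a threshold of 0.05. CPM are TMM-scaled, and shares of counts are not. Totals were 28038260 to 32661768 counts. The SD between libraries was above the counting error for 37 of 77 members among high-glucose controls and for 45 among deprived controls, so that spread and counting error were of like size there; it was above in 63 to 73 in the other 4 groups. MRPS24 and other members under 5 CPM rest on few counts. On simulated counts for CGRP in high glucose (17517 genes) the test called 86% of genes raised to 2 times, 68% of those raised to 1.5 times and 0.0231% of unchanged genes.

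In each comparison up to 5 rises and 5 falls were named, the largest among members that passed with no overlap between libraries. MRPL12, MRPL58, MRPS12, MRPS18A, MRPS18B, MRPS18C, MRPS30 and DAP3 were followed in all comparisons, but their values are not printed for every one. The 5 highest and 5 lowest levels were named too. MRPL17 in 2-DG medium with CGRP and other members beyond these were named after their values were seen. The members, lists, naming rule and alternatives were chosen with earlier results of these data known. Alternatives were other scalings and filters, DESeq2 1.42.0, only the groups compared, a replicate block, each library left out, both libraries that stand apart left out, and a length offset added after seeing the data. Labels do not say whether replicates were separate cultures beyond calling them independent, and p-values measure the spread between these libraries. The NRF1 motif was set to 8 letters after the values of a longer form had been seen.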

Additional observations from a re-analysis of the deposited data

Results flagged for a closer look

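The CGRP response differed between glucose-deprived and high-glucose medium by edgeR's quasi-likelihood test, with all 18 libraries, in 3 of the other genes measured beside the members. Over all genes it differed in 1.55%. By list it differed in 2 of 10 regulators of mitochondrial biogenesis and 1 of 15 mitochondrially encoded genes. None differed among 29 assembly genes, 17 translation factors, 16 aminoacyl-tRNA synthetases and 12 genes of mitochondrial transcription and DNA upkeep. The same held for 5 ribosomal proteins with other symbols, 82 cytosolic ribosomal proteins and 78 nuclear respiratory subunits. The difference is the log2 change with CGRP in deprived medium minus that in high glucose. For PPARGC1A, which encodes the coactivator PGC-1alpha and was measured at 0.238 to 1.35 CPM in these 12 libraries, the change with CGRP was 1.13 ± 0.27 (SE, adjusted p = 0.012) in deprived medium and -0.30 ± 0.20 (SE, adjusted p = 0.59) in high glucose. The difference was 1.43 ± 0.33 (SE, adjusted p = 0.042), and 1.515 (adjusted p = 0.014) without the 2 libraries that stand apart. For MYC, a transcription factor of growth, the change with CGRP was -0.54 ± 0.05 (SE, adjusted p = 9.69e-06) in deprived medium and -0.90 ± 0.05 (SE, adjusted p = 9.27e-08) in high glucose. The difference was 0.36 ± 0.07 (SE, adjusted p = 0.021), and 0.36 (adjusted p = 2.08e-05) without the 2 libraries that stand apart. For MT-ND6, a complex I subunit encoded in mitochondrial DNA, the change with CGRP was -0.37 ± 0.07 (SE, adjusted p = 0.0031) in deprived medium and 0.34 ± 0.07 (SE, adjusted p = 0.01) in high glucose. The difference was -0.71 ± 0.10 (SE, adjusted p = 0.0014), and -0.63 (adjusted p = 1.07e-13) without the 2 libraries that stand apart.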

How the results depend on the processing

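Counts of members called moved with the libraries and the estimate of the spread more than with scaling. Shares of all genes called moved with these settings too. For CGRP in high glucose they were 4.33% with all libraries, 19.1% without both and 7.53% with a length offset. In deprived medium they were 13%, 28.7% and 17.8%, and in 2-DG medium 12.2%, 28.4% and 18.8%. Shares with only the groups compared are not given here. For CGRP in high glucose (0 called) the count was 1 with total-count scaling, 11 with only the groups compared, 10 without both libraries that stand apart and 2 with a length offset. For CGRP in deprived medium (1 called) it was 2 with RLE scaling, 3 with total-count scaling, 0 with no low-count filter, 2 with a stricter filter (MRPL3 not among them), 3 with DESeq2, 0 with only the groups compared, 36 without both libraries and 10 with a length offset. For CGRP in 2-DG medium (8 called) it was 4 with no filter, 2 with only the groups compared, 23 without both libraries and 16 with a length offset. For deprivation without CGRP (30 called) it was 55 with only the groups compared and 52 without both libraries, and with CGRP (28 called) 16 and 61. For 2-DG against high glucose without CGRP (7 called) it was 3 with only the groups compared, 24 without both libraries and 13 with a length offset, and with CGRP (1 called) it was 0 with total-count scaling, 0 with no filter, 2 with DESeq2, 7 with only the groups compared, 14 without both libraries and 5 with a length offset. For 2-DG against deprivation (32 called) it was 51 without both libraries. The differences in CGRP response (0 called) gave 15 for deprived and 3 for 2-DG medium without both libraries.

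Leaving out 1 library at a time gave 0 to 9 for CGRP in deprived medium, 2 to 9 in 2-DG medium, 22 to 23 for deprivation without CGRP and 22 to 43 with it, 2 to 8 for 2-DG against high glucose without CGRP and 0 with it, 25 to 34 for 2-DG against deprivation, and 0 for CGRP in high glucose and both differences in response. Where this left 2 libraries in a group, they were taken to vary like those of the other groups.

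Same-numbered replicates share only a number: 6 of 45 same-numbered pairs had a correlation of deviations over 0.1, from -0.185 to 0.636 with a median of -0.006. With a replicate block 3 members were called for CGRP in deprived medium and 0 for 2-DG against high glucose with CGRP.

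Without both libraries members changed sign and fell at the threshold in 5 comparisons: 17 of 77 for CGRP in deprived medium, 18 for deprivation with CGRP, 4 for 2-DG against high glucose and 2 for 2-DG against deprivation without CGRP, and 8 for the difference in CGRP response between deprived and high-glucose medium. Among the genes followed in every comparison 5 values did so. For CGRP in deprived medium these were MRPL58 (-0.2055, edgeR adjusted p = 0.0021) and DAP3 (-0.102, adjusted p = 0.027). For deprivation with CGRP they were MRPS12 (-0.1355, adjusted p = 0.023) and MRPS18C (-0.1859, adjusted p = 0.0056). The last was MRPL58 for the difference in CGRP response between deprived and high-glucose medium (-0.2237, adjusted p = 0.030). The cause of these changes was not tested. Depth limits the members under 5 CPM.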

Other observations

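Nuclear genes that act on mitochondrial DNA, on charging of mitochondrial tRNAs and on mitochondrial biogenesis were measured beside the ribosomal proteins, in glucose-deprived against high-glucose medium without CGRP. Over all genes 31% rose and 29.6% fell in this comparison, 60.6% in all. Of 16 mitochondrial aminoacyl-tRNA synthetases, which load amino acids onto tRNAs, 8 rose and 4 fell. WARS2, for tryptophan, rose from 20.1 ± 0.577 to 29.2 ± 0.576 CPM (SD, n = 3), a log2 change of 0.54 ± 0.07 (SE, edgeR adjusted p = 7.94e-06). IARS2, for isoleucine, fell from 235.5 ± 0.96 to 181.9 ± 2.75 CPM (SD, n = 3), a log2 change of -0.37 ± 0.04 (SE, adjusted p = 3.99e-07). Of 12 genes of mitochondrial transcription and DNA upkeep 3 rose and 4 fell. TWNK, the mitochondrial DNA helicase, rose by 0.49 ± 0.06 (SE, adjusted p = 1.30e-06), while TFAM, which packs mitochondrial DNA and starts its transcription, fell by -0.20 ± 0.05 (SE, adjusted p = 0.0017).

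Of 10 regulators of mitochondrial biogenesis 4 rose and 4 fell. PPRC1, a coactivator related to PGC-1alpha, rose from 40.4 ± 2.03 to 65.8 ± 0.875 CPM (SD, n = 3), a log2 change of 0.71 ± 0.11 (SE, adjusted p = 2.31e-05). PPARGC1A, which encodes PGC-1alpha, was near the lower limit of detection at 1.08 ± 0.257 CPM in high glucose and 0.282 ± 0.0383 CPM in deprivation (SD, n = 3). Its change was -1.92 ± 0.24 (SE, adjusted p = 3.93e-06), and -0.49 (adjusted p = 0.08) with CGRP in both arms. GABPA, a subunit of the ETS factor GABP, fell by -0.35 ± 0.12 (SE, adjusted p = 0.017), and MYC rose by 0.43 ± 0.05 (SE, adjusted p = 2.20e-06).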
